A study of Homo sapiens with 15 samples.

Results

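Replication-dependent histone genes encode the linker histone H1 and the core histones H2A, H2B, H3 and H4 that package newly copied DNA. They were taken here as every listed gene whose symbol starts with HIST1 to HIST4 followed by a histone class and holds no pseudogene mark (PS), which gave 76 of 57773 genes, with 13 marked pseudogenes left out. The symbol rule keeps a few genes that are pseudogenes under other names, such as HIST2H3DP1. The genes comprise 6 for H1, 17 for H2A, 23 for H2B, 15 for H3 and 15 for H4. They lie in 4 named groups, with 55 in HIST1 on chromosome 6, 16 in HIST2 on chromosome 1, 4 in HIST3 and 1 in HIST4.

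The cells were HepG2, an established human hepatocellular carcinoma line kept below 25 passages. Exposure lasted 72 h. The compounds were TCEP, which is tris(2-chloroethyl) phosphate, given at 25 or 250 µM, and TCIPP, which is tris(2-chloroisopropyl) phosphate, given at 2.5 or 25 µM; controls received 0.1% dimethyl sulfoxide (DMSO). Both agents are chlorinated organophosphate flame retardants, and TCIPP differs from TCEP by an extra methyl group on each chlorinated arm. Each of the 5 groups held 3 libraries from cultures that were seeded, exposed and extracted apart. A single cell line in culture is the limit of the model.

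Most mammalian mRNAs end in a poly-A tail, but those of replication-dependent histone genes end just past a short stem-loop. The stem-loop-binding protein SLBP holds that structure, and the U7 small nuclear ribonucleoprotein directs the cut behind it. Production is tied to S phase, when the coactivator NPAT drives the clusters, and the mRNAs are degraded when DNA synthesis stops. Some of the genes can also give a longer, polyadenylated mRNA, as is known for differentiated cells. The libraries were made from RNA bound to poly-T beads, so mRNA that ends at the stem-loop is not what the selection retains. Every level below is that of reads in a poly-A selected library and cannot be read as the total histone mRNA of the cells.

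The stem-loop was present in nearly all of the genes. It was searched in the 100 bases after the stop codon as GGNNNNTTNNANNNCC with its 6 outer bases on each side able to pair (G with T allowed), on the coding strand of GRCh37 with GENCODE gene models. Of the 76 genes, 72 matched a gene model and 65 had an annotated stop codon, and 62 of these 65 (95.4%) held the hairpin, 22 to 67 bases past the stop. Among all 19763 protein-coding genes with a stop codon it was found in 66 (0.334%), a count that includes the histone genes. Only 4 genes outside the 76 held it. The sequences below are those of the genes with the most reads and of genes described later, each with 5 flanking bases; the capitals mark the paired stem and the lower-case bases between them the loop.
HIST1H2AC: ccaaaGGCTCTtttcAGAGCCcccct
HIST1H1C: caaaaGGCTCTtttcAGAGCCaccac
HIST2H2BE: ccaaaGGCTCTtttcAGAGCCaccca
HIST1H2BC: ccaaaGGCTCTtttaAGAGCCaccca
HIST1H2BN: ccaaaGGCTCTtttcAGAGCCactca
HIST1H2BK: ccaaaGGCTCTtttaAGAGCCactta
HIST1H4J: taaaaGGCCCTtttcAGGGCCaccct
HIST4H4: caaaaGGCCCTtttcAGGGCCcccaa

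On GRCh37 the 16 hairpin bases lie at chr6:26124897-26124912 on the plus strand for HIST1H2AC, chr6:26055972-26055987 on the minus strand for HIST1H1C, chr1:149857738-149857753 on the minus strand for HIST2H2BE and chr6:27792237-27792252 on the plus strand for HIST1H4J. All 4 are in the 3′ untranslated region. The hairpin came in 7 spellings. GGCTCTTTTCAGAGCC was found in 38 genes of the classes H1, H2A, H2B and H3, and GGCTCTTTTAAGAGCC in 9. The H4 genes had spellings found in no other class, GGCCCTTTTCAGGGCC in 8 and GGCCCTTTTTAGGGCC in 4. The 3 other spellings were each in 1 H2A gene. HIST1H3E, HIST1H2BI and HIST1H4L held no such letters in the window searched.

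Histone genes supplied few reads. Total exon reads per library ran from 5.35 M (megareads) in TCIPP 25 µM replicate 2 to 26.8 M in TCIPP 2.5 µM replicate 3, and the 76 genes received 327 to 1827 of these. That made 11157 reads over all libraries, or 65.4 CPM (reads per megaread of exon reads). By contrast, the 16 listed replication-independent histone genes, whose mRNAs are polyadenylated, summed to 1441 to 1639 CPM per library. Their most abundant members on this scale were H1F0 (linker histone H1.0) at a mean of 605 CPM, H3F3B (H3.3) at 345 CPM and H2AFZ (H2A.Z) at 126 CPM. Levels in CPM are not corrected for gene length.

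A total of 23 histone genes had 10 or more exon reads in at least 1 library, 37 had reads but under 10 in every library, and 16 had none. The 23 were HIST1H1C of class H1, HIST1H2AC, HIST2H2AA3, HIST2H2AA4, HIST1H2AI, HIST2H2AC, HIST1H2AG and HIST1H2AE of class H2A, and HIST2H2BE, HIST1H2BC, HIST1H2BN, HIST1H2BD, HIST1H2BK, HIST1H2BL and HIST1H2BH of class H2B. They further included HIST1H3H and HIST1H3C of class H3 and HIST1H4J, HIST2H4A, HIST2H4B, HIST4H4, HIST1H4H and HIST1H4E of class H4. The number at 10 or more reads in a given library ran from 9 in the shallowest library to 20 in the deepest, and 8 genes reached it in all 15.

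Those without a read included HIST1H2AA, HIST1H2BA and HIST3H3, which encode testis histones, and all 4 HIST3 genes. They also included HIST1H1B (H1.5), HIST1H2BI, HIST1H3G and the H4 genes HIST1H4F, HIST1H4G, HIST1H4I and HIST1H4L. A count of 0 over 170 M exon reads allows a level of up to 0.0176 CPM (3 reads), which covers counting error alone. For HIST2H2BC, HIST2H2BD and HIST2H3DP1 the tables list an exon length of 0, so no exon read could be counted; the first 2 held 117 and 37 intron reads. The 37 genes with few reads and the 16 without any made up 4.79% of the histone reads together.

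The classes were unequally represented. H2A genes held 41.5% of the histone reads, H2B genes 29.1%, H1 genes 13.8% and H4 genes 12.6%. H3 genes held 2.99%, with HIST1H3H at 134 reads as their most abundant member. The HIST1 cluster carried 73.1% of the reads, HIST2 25.1%, the single HIST4 gene 1.80% and HIST3 none.

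Reads were concentrated in a few genes. HIST1H2AC on chromosome 6 (26124373 to 26139344, 5 exons) took 2970 reads, 26.6% of the total. HIST1H1C, which encodes H1.2 from a single exon (26055968 to 26056699), took 1501, and HIST2H2BE on chromosome 1 (149856010 to 149858232) took 1115, so that 3 genes held 50.1% of the reads. Per length the order changed: HIST1H1C had a mean of 10.8 RPKM, HIST1H2AC 9.60 and HIST1H4J 9.18. HIST1H2BC followed at 4.47 RPKM, then HIST2H2AA3 at 4.06 and HIST2H2AA4 at 3.30, and HIST2H2BE came seventh at 2.65 RPKM. HIST1H2BN, with 580 reads over 4265 bases of exon, was at 0.708 RPKM.

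The copies of chromosome 1 cannot be separated by these reads. HIST2H2AA3 and HIST2H2AA4 are near-identical genes, and 7.91% and 0.353% of their reads were unique to 1 place. HIST2H4A (0.897%) and HIST2H4B (0%) are such a pair as well. Summed as pairs, the H2A copies held 1054 reads and the H4 copies 421. HIST1H2AC, HIST1H1C and HIST4H4 stood at the other end with 100% unique reads, and HIST1H4J at 67.7%.

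Genes whose models run far past the stem-loop held most of the reads. Of the 62 genes with a hairpin, 17 had a deposited gene model that extends over 100 bases beyond it (970 to 29195 bases), and 45 had one that ends within 100 bases of it. These distances are genomic and include introns. The model of HIST1H2AC, for example, reaches 14432 bases past its hairpin but holds 1668 bases of exon in all. In the first set 12 of 17 genes (70.6%) had 10 or more reads in a library, against 10 of 45 (22.2%) in the second. Exon length enters these counts and the shares of reads, with 820 to 4265 exon bases per gene in the first set and 354 to 865 in the second. HIST1H2AC alone gave 2970 of the 6857 reads of the first set. The first set held 61.5% of all histone reads with a median of 0.422 RPKM per gene, and the second 30.8% with a median of 0.0463 RPKM. Of the 17 long models, 16 contain the polyadenylation signal letters AATAAA past the hairpin, searched in genomic sequence with introns included. So short a word can occur by chance in stretches this long, and its chance rate was not computed. The short models left at most 51 bases to search. The letters therefore do not show that a signal was used. The length of an annotated model does not show which 3′ end the reads came from, and the split was chosen after the levels had been seen. A demand for 10 reads in every library left 5 of 17 (29.4%) and 2 of 45 (4.44%).

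**Figure D1:**
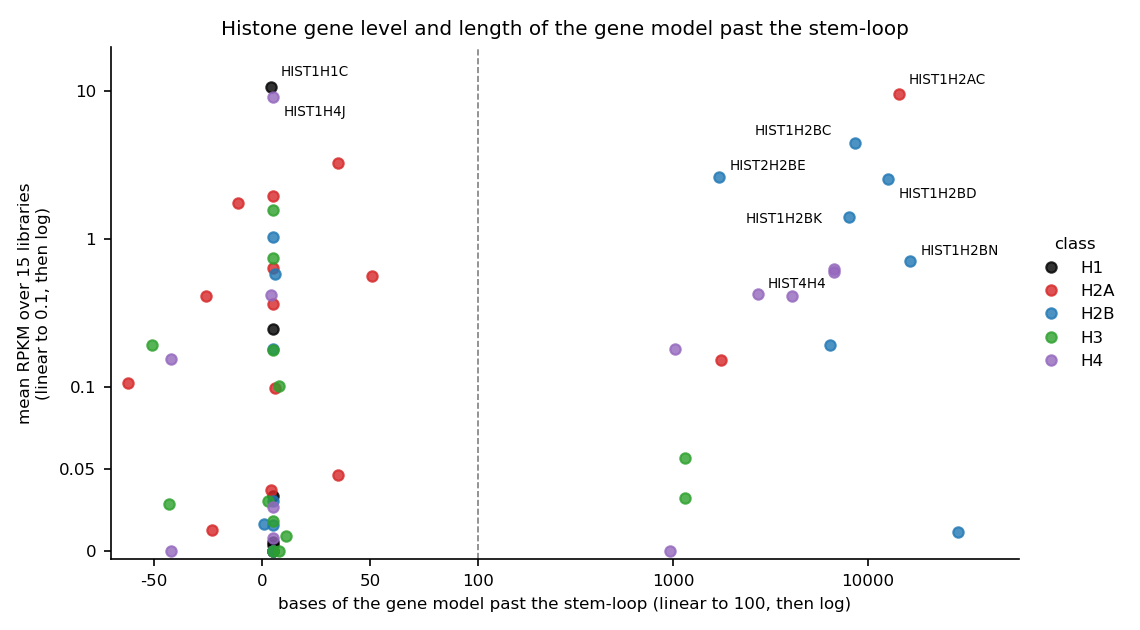
Each point is 1 of the 62 histone genes with a stem-loop; the x axis gives the bases of its gene model past the stem-loop (negative where the model ends before it; linear to 100, log beyond), the y axis its mean RPKM over 15 libraries (linear to 0.1, log above), and the dashed line marks 100 bases. HIST1H1C and HIST1H4J, at 10.8 and 9.18 RPKM, end at the stem-loop and are as high as HIST1H2AC (9.60), whose model runs 14432 bases beyond it. Distances are genomic and include introns.

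The 2 most abundant short models were exceptions. HIST1H1C ends 4 bases past its hairpin and HIST1H4J 5 bases past, and both were among the 3 highest genes per length. Long models included HIST1H2AC (14432 bases past the hairpin), HIST1H2BN (16604), HIST1H2BD (12747), HIST1H2BC (8599), HIST1H2BK (8072), HIST4H4 (2725) and HIST2H2BE (1728). Both sets overlapped DMSO in each treated group. The 17 long models summed to 40.8 ± 5.11 CPM (SD, n = 3) in DMSO and 38.6 to 41.5 CPM in the treated groups, and the 45 short models to 19.5 ± 3.37 CPM in DMSO and 17.6 to 23.7 CPM in the treated groups.

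Promoter letters divided the classes too. RefSeq promoters (GRCh38.p14, 250 bases before to 50 after the start) were matched for 60 of the genes and searched on both strands. The octamer ATTTGCAT, the site bound by Oct-1 (POU2F1), was in 11 of 15 H2A and 12 of 16 H2B promoters, 1 of 12 H3 promoters, and no H1 (of 6) or H4 (of 11) promoter, against 1.77% of all 35116 promoters. CCAAT, the letters bound by NF-Y, was in every H1, H2A, H2B and H3 promoter searched but in 2 of 11 for H4, with 34.6% in all promoters. TATAAA was in 40 of 60 (66.7%) against 11.5%. These searches count letters and not bound sites, and an octamer can share its end letters AT with a CCAAT box. Windows of neighbouring genes can overlap, so the same octamer or TATAAA can count for both classes, as for HIST1H2AC and HIST1H2BC. The TATAAA counted for HIST1H2BC is that of HIST1H2AC read on the other strand. TATAAA was counted at any place in the window, so its share is not that of genes with their own TATA box. The class counts are therefore not independent.

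The most abundant pair of neighbours has overlapping promoter windows. Joint control of the pair was not tested. HIST1H2AC and HIST1H2BC are transcribed away from each other, and the promoter window of HIST1H2AC, chr6:26123922-26124221 on the plus strand of GRCh38.p14, overlaps that of HIST1H2BC. It is printed with the octamer (here as its reverse complement ATGCAAAT), 3 CCAAT boxes (2 of them reversed, ATTGG) and TATAAA in capitals, none of which overlap here.
HIST1H2AC promoter: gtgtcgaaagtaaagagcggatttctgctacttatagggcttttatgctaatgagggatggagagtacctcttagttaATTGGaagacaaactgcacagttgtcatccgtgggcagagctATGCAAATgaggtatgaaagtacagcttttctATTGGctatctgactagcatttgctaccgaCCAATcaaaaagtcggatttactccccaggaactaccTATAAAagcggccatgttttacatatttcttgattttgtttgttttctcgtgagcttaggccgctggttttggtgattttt

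**Figure D2:**
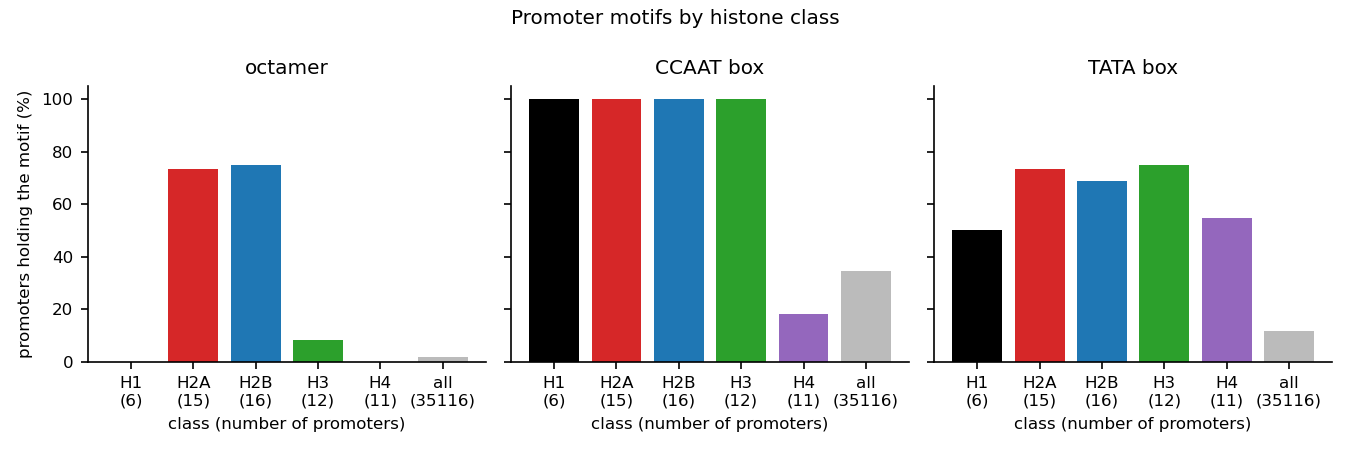
Bars give the percentage of RefSeq promoters that hold the octamer ATTTGCAT, CCAAT or TATAAA on either strand, by histone class and over all promoters; numbers under the bars count promoters. The octamer stands at 73.3% for H2A and 75% for H2B and at 0% for H1 and H4.

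The effect of the compounds was first looked for in the summed level of all 76 genes. In DMSO the sum was 61.0, 75.2 and 59.4 CPM in replicates 1, 2 and 3, a mean of 65.2 ± 8.72 (SD, n = 3). With TCEP it was 64.8, 76.8 and 63.7 CPM at 25 µM and 68.1, 62.6 and 64.8 CPM at 250 µM. With TCIPP it was 66.5, 73.9 and 68.2 CPM at 2.5 µM and 61.8, 61.1 and 59.5 CPM at 25 µM. Each treated group overlapped the DMSO libraries. The TCIPP groups did not overlap each other, with a mean of 69.6 ± 3.89 CPM at 2.5 µM and 60.8 ± 1.19 CPM at 25 µM. Reads counted at random would give the sum a relative SD of 2.34% to 5.53% per library.

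**Figure D3:**
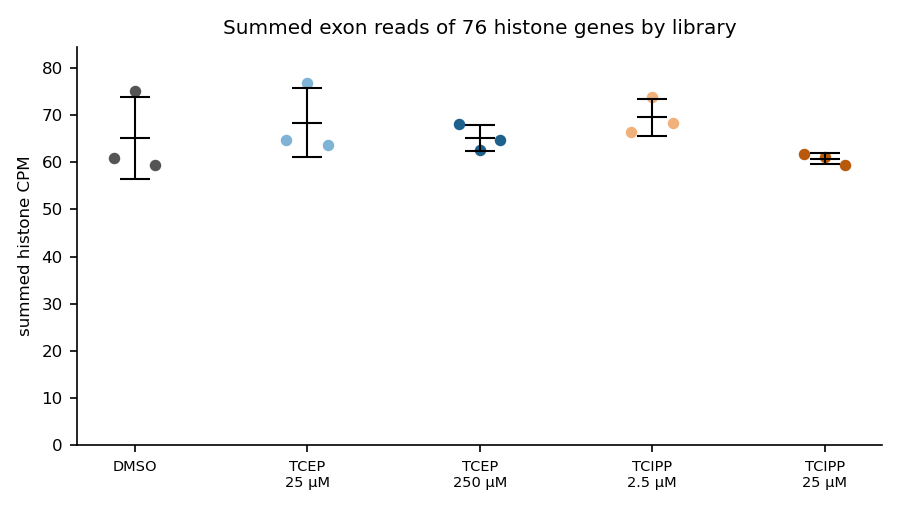
Points give the summed CPM of the 76 histone genes in each library, and bars the mean and SD of 3 libraries. The treated groups lie between 59.5 and 76.8 CPM and the DMSO libraries between 59.4 and 75.2.

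By class, each treated group overlapped DMSO as well. H2A genes summed to 27.3 ± 3.11 CPM in DMSO and to 26.6 to 28.1 CPM in the treated groups, and H2B genes to 19.6 ± 1.88 and 17.5 to 20.1 CPM. H1 genes summed to 7.83 ± 2.51 CPM in DMSO, 10.6 ± 1.88 at 25 µM TCEP and 10.0 ± 1.35 at 2.5 µM TCIPP. Between concentrations the H1 sums did not overlap, with 8.72 to 12.5 CPM at 25 µM TCEP against 8.01 to 8.58 at 250 µM, and 8.86 to 11.5 CPM at 2.5 µM TCIPP against 5.95 to 8.77 at 25 µM. HIST1H1C held 1501 of the 1540 reads of the class, and its own libraries overlapped in both concentration steps. The separation of the H1 sums therefore rests on the few reads of the other H1 genes. No background share was computed for class sums. H4 genes reached 10.1 ± 2.13 CPM at 2.5 µM TCIPP against 8.20 ± 1.76 in DMSO, and H3 genes stayed between 1.90 and 2.25 CPM.

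Gene by gene, 15 of the 76 passed edgeR's filter on low counts and were tested, and they held 90.3% of the histone reads. The other 8 genes with 10 or more reads in some library were left out by that filter and summed to 2.93 to 3.82 CPM per group. No histone gene passed an adjusted p of 0.05 (edgeR quasi-likelihood test, Benjamini-Hochberg over 12567 genes) in any of the 7 comparisons run, 4 against DMSO, 2 between concentrations of a compound and 1 between compounds at 25 µM. DESeq2 and limma-voom called none either, but DESeq2 gave an adjusted p to between 0 and 7 of the 15 only. Over all genes tested, the called share was 0% for TCEP 25 µM, 0% for TCEP 250 µM, 0.0955% for TCIPP 2.5 µM and 0.00796% for TCIPP 25 µM against DMSO. It was 0% for each concentration step and 0.0398% for TCIPP against TCEP at 25 µM.

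The intervals were wide for these genes. Distances from estimate to bound of the 95% confidence interval (log2) had medians of 0.63 to 0.76 for the 15 genes, depending on the comparison, and of 0.25 to 0.26 for all genes tested. Their median biological coefficient of variation was 0.157, against 0.0840 over all genes. A miss of the threshold therefore does not show that a level was equal. HIST1H2AC, the deepest of the 15, gave the tightest bounds.

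An unadjusted p under 0.05 was found for 1 of the 15 genes with TCEP 25 µM against DMSO (background 15.2% of genes), 0 for TCEP 250 µM (5.2%), 0 for TCIPP 2.5 µM (13.9%) and 1 for TCIPP 25 µM (6.36%). Between concentrations it was 2 for TCEP (7.16%) and 1 for TCIPP (10.8%), and between compounds at 25 µM 2 (18.1%). The median log2 fold change of the 15 genes against DMSO was 0.05 for TCEP 25 µM, 0.00 for TCEP 250 µM, 0.07 for TCIPP 2.5 µM and -0.12 for TCIPP 25 µM, where that of all genes was 0.00 in each case. These 4 comparisons share their DMSO libraries.

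**Figure D4:**
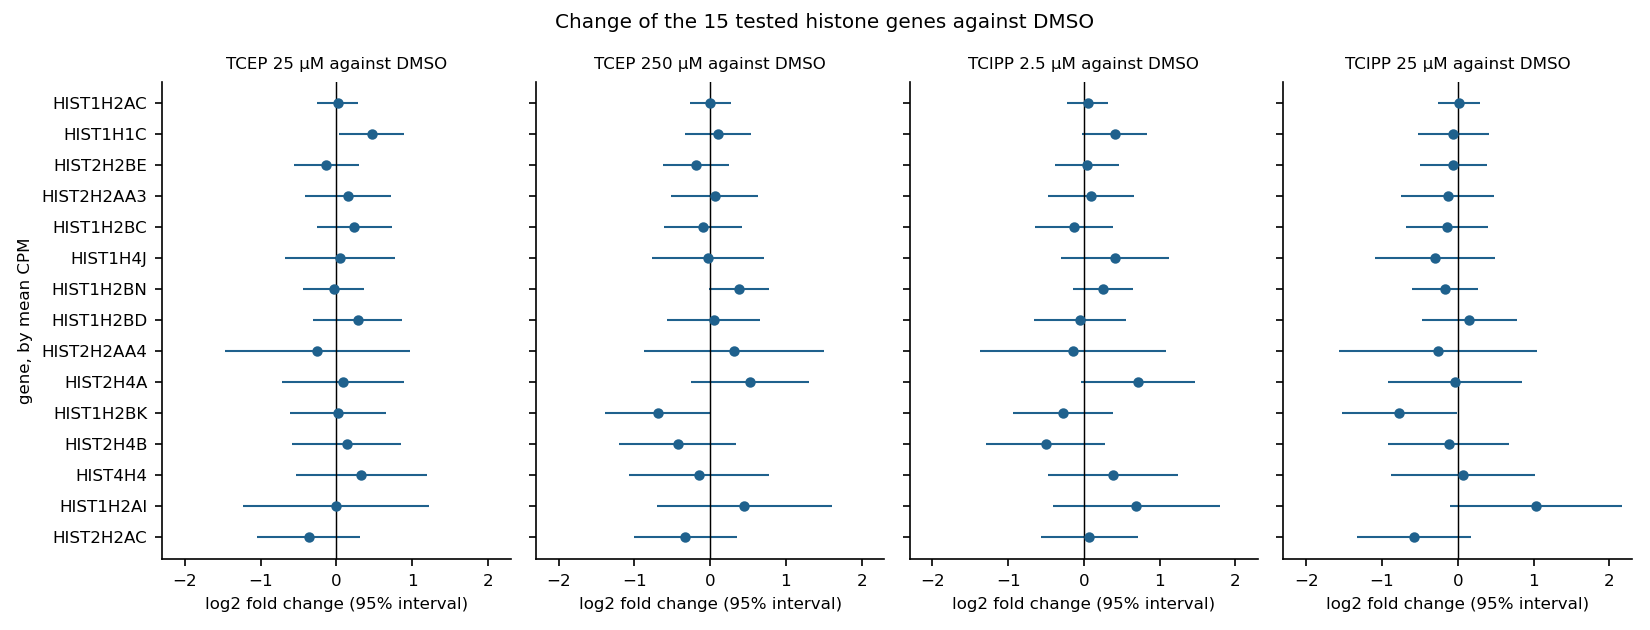
Points give the edgeR log2 fold change against DMSO of the 15 histone genes tested, ordered by mean CPM, and lines its 95% confidence interval. Intervals of HIST1H2AC span 0 narrowly in all 4 panels, and those of the less abundant genes are wider.

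HIST1H2AC, an H2A gene, lay in the same range in all groups. Its level was 15.2, 19.7 and 17.0 CPM in the DMSO replicates 1 to 3, 15.3, 20.3 and 16.8 with 25 µM TCEP, and 18.2, 16.4 and 17.7 with 250 µM TCEP. It was 16.3, 20.1 and 17.4 CPM with 2.5 µM TCIPP and 19.1, 17.4 and 15.97 with 25 µM TCIPP. All groups overlapped. The log2 fold change for 250 µM TCEP was 0.00, with a 95% interval of -0.26 to 0.27, and for 25 µM TCIPP 0.02, with an interval of -0.26 to 0.29.

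HIST1H1C, the gene of linker histone H1.2, had the smallest adjusted p of the set (between the compounds, below). It was at 6.20, 10.6 and 6.30 CPM in DMSO, at 8.15, 12.5 and 10.4 with 25 µM TCEP, and at 7.88, 7.99 and 8.39 with 250 µM TCEP. The TCIPP libraries held 8.43, 9.15 and 11.4 CPM at 2.5 µM and 5.84, 7.47 and 8.44 at 25 µM. DMSO replicate 2 lay above most treated libraries, so that no treated group was clear of the controls. Replicate 2 was also the highest at 25 µM TCEP, and each library there lay above the DMSO library of the same number. At 2.5 µM TCIPP replicates 1 and 3 did so, and replicate 2 did not. Over 16 alternatives, the replicate block included, the estimates ran from 0.30 to 0.72 for 25 µM TCEP and from 0.24 to 0.66 for 2.5 µM TCIPP. In edgeR the estimate for 25 µM TCEP was 0.46 ± 0.20 (log2, SE; adjusted p = 0.283), and that for 2.5 µM TCIPP 0.41 ± 0.20 (adjusted p = 0.389). Without DMSO replicate 2 they were 0.72 (adjusted p = 0.0937) and 0.66 (adjusted p = 0.0739), and without DMSO replicate 3 they were 0.30 and 0.24. Without TCIPP 2.5 µM replicate 3 the estimate for TCIPP was 0.24.

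HIST1H2BK, an H2B gene, held 1 of the 2 smallest p values in 4 of the 7 comparisons, as did HIST1H1C. Its level was 1.52, 2.12 and 1.26 CPM in DMSO, 1.42, 1.33 and 1.90 at 25 µM TCEP, and 1.22, 0.754 and 0.953 at 250 µM TCEP. At 25 µM TCIPP it was 0.561, 1.12 and 1.12 CPM, and at 2.5 µM 1.55, 0.885 and 1.34. The libraries of both high concentrations lay below all DMSO libraries. HIST1H2BK had 10 or more reads in only 10 of the 15 libraries, so some of these values rest on under 10 reads. The edgeR log2 fold change was -0.69 ± 0.33 (SE) for 250 µM TCEP (adjusted p = 0.971) and -0.77 ± 0.36 for 25 µM TCIPP (adjusted p = 0.773), and the latter was -0.48 without TCIPP 25 µM replicate 1. Its span overlaps that of HIST1H4I, which had no reads.

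HIST1H2BN, another H2B gene, lay above the controls at 250 µM TCEP in exon reads but not in gene reads. It was at 2.53, 3.37 and 3.27 CPM in DMSO and at 3.94, 4.68 and 3.77 with 250 µM TCEP, and edgeR put the difference at 0.38 ± 0.19 (log2, SE; adjusted p = 0.983). Counted as gene reads, introns included, it was at 4.60, 5.68 and 4.47 CPM in DMSO and 5.95, 6.09 and 5.19 with 250 µM TCEP, so the groups overlapped and the estimate was 0.21. With 25 µM TCEP it was at 3.13, 2.98 and 2.92 CPM. The TCIPP values were 3.09, 3.39 and 4.18 CPM at 2.5 µM and 2.47, 2.80 and 3.04 at 25 µM.

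HIST1H2AI and HIST2H2AC, both of class H2A, were near the limit of counting. HIST1H2AI was at 1.01, 0.499 and 0.653 CPM in DMSO and at 1.80, 1.12 and 1.35 with 25 µM TCIPP, above every control library. Its log2 fold change there was 1.03 ± 0.54 (SE) with an adjusted p of 0.817 in edgeR. HIST2H2AC was at 1.01, 1.25 and 1.07 CPM in DMSO and lower in each library with 25 µM TCEP (0.853, 0.995 and 0.747) and with 25 µM TCIPP (0.449, 0.934 and 0.900), with adjusted p 0.636 in the first. A library's 10 reads correspond to 0.374 to 1.87 CPM, so several of these values rest on under 10 reads.

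The number of the 15 genes whose 3 libraries did not overlap the 3 of DMSO was 1 for TCEP 25 µM (background 22.6%), 2 for TCEP 250 µM (11.2%), 0 for TCIPP 2.5 µM (16.8%) and 3 for TCIPP 25 µM (9.2%). The gene for TCEP 25 µM was HIST2H2AC. Those for TCEP 250 µM were HIST1H2BK and HIST1H2BN, and those for TCIPP 25 µM were HIST1H2AI, HIST1H2BK and HIST2H2AC.

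The remaining abundant genes overlapped DMSO in all 4 treated groups. HIST2H2BE, an H2B gene, was at 5.82, 8.61 and 6.20 CPM in DMSO and between 4.48 and 8.31 in the treated libraries, with log2 fold changes of -0.19 to 0.04. HIST1H2BC was at 5.57, 3.74 and 3.36 CPM in DMSO and between 2.80 and 5.64 elsewhere. HIST1H4J, an H4 gene, was at 3.41, 4.24 and 3.13 CPM in DMSO and between 1.69 and 6.49 in the treated libraries. The pair HIST2H2AA3 and HIST2H2AA4 summed to 6.30 ± 1.06 CPM in DMSO and to 5.56 to 7.13 CPM in the treated groups. The pair HIST2H4A and HIST2H4B summed to 2.46 ± 0.574 CPM in DMSO and to 2.16 to 2.76 CPM in the treated groups, so the log2 fold change of 0.71 for HIST2H4A alone with 2.5 µM TCIPP (adjusted p = 0.388) rests on reads that the tables divide between copies, and was 0.48 without DMSO replicate 1.

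**Figure D5:**
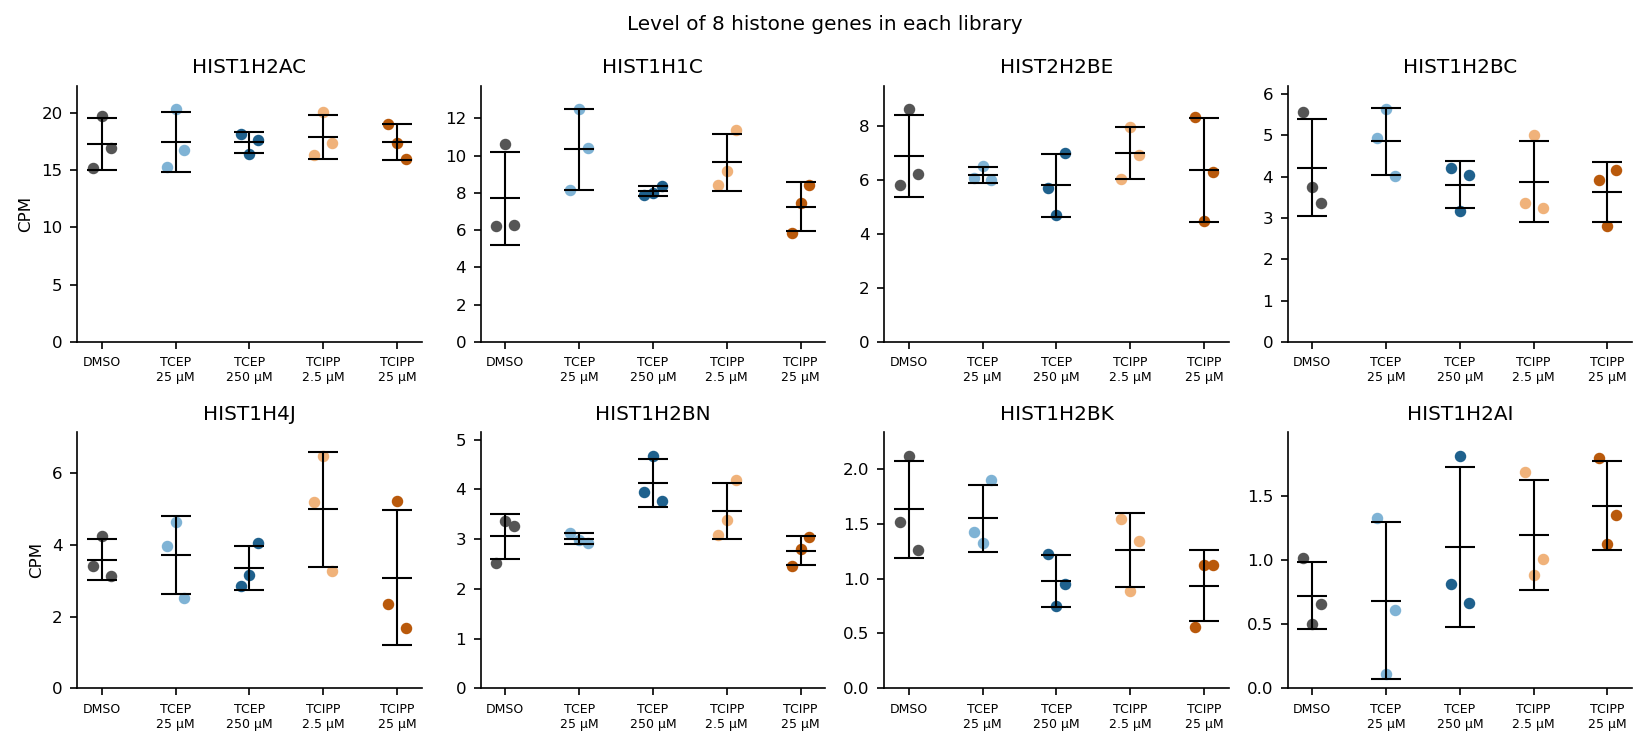
Points give the CPM of 8 histone genes in each library, and bars the mean and SD of 3 libraries. HIST1H2AC lies between 15.2 and 20.3 CPM in every group; HIST1H2BK at 250 µM TCEP and at 25 µM TCIPP lies below the DMSO libraries; HIST1H2BN at 250 µM TCEP lies above them.

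Between the concentrations of each compound, most log2 fold changes of the 15 genes were negative. The median log2 fold change was -0.08 for 250 against 25 µM TCEP, with 10 of 15 negative, and -0.23 for 25 against 2.5 µM TCIPP, with 12 of 15 negative; the medians of all genes were 0.00. For TCEP, HIST1H2BN gave 0.41 ± 0.19 (SE, adjusted p = 0.680 in edgeR) and HIST1H2BK -0.71 ± 0.33 (adjusted p = 0.687), and 3 of 15 genes did not overlap (background 15.5%), HIST2H4B among them. The TCEP step less the TCIPP step had an unadjusted p under 0.05 for 2 of the 15 genes, HIST1H2BN and HIST2H4A (background 1.66%), and none was called (0% of genes). HIST2H4A gave 1.19 on the log2 scale and its copy HIST2H4B -0.96. Nearly all reads of these copies are shared, so neither value can be read alone. HIST1H2BN was the 1 gene whose steps both lacked overlap in opposite directions (background 0.167%). For TCIPP, HIST1H1C gave -0.46 ± 0.21 (adjusted p = 0.440) and HIST1H2BN -0.42 ± 0.20 (adjusted p = 0.473), with HIST1H2BN as the 1 gene that did not overlap (12.8%). Without TCIPP 2.5 µM replicate 3 these were -0.30 and -0.25, and with gene reads HIST1H2BN was at 0.26 for the TCEP step and 0.01 for the TCIPP step. With the replicate number as a block, 0 of the 15 genes were called in either step, while the count over all genes went from 0 to 185 for TCEP and from 0 to 484 for TCIPP.

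The compounds were compared at 25 µM, the one concentration they share, which made 1 pair. The log2 difference of TCIPP from TCEP was negative for 13 of 15 genes, with a median of -0.21 against 0.00 over all genes. This comparison shares its TCIPP libraries with the TCIPP step and its TCEP libraries with the TCEP step. The counts of negative genes are thus not independent of each other. They also count the copies HIST2H2AA3 and HIST2H2AA4, and HIST2H4A and HIST2H4B, as separate genes. The smallest p values were those of HIST1H1C, at -0.52 ± 0.21 (SE; 95% interval -0.97 to -0.07; adjusted p = 0.206 in edgeR), and HIST1H2BK, at -0.79 ± 0.36 (-1.55 to -0.04; adjusted p = 0.253), or -0.50 without TCIPP 25 µM replicate 1. HIST1H2BK was the 1 gene of 15 whose libraries did not overlap, against a background of 20.1% of genes. For HIST1H2AC the difference was 0.00, with an interval of -0.28 to 0.27. With the replicate block the count over all genes went from 5 to 1100, and 0 of the 15 histone genes were called. At the other concentrations, 250 µM TCEP and 2.5 µM TCIPP, doses differ and the values stand side by side above.

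The genes that make, cut and place histone mRNA and protein followed, and 0 of them were called in any comparison by edgeR. Over all genes and the 4 comparisons with DMSO, 10.2% of tests had an unadjusted p under 0.05, which is the background for the counts that follow. In the list for 3′ end formation and decay, 22 of 22 genes were tested, and over the 4 comparisons with DMSO 0 tests were higher and 5 lower at an unadjusted p under 0.05 (5.68% of 88). SLBP was at 48.0 ± 2.06 CPM in DMSO and 46.2 to 50.3 CPM in the treated groups. LSM10, a subunit of the U7 particle, gave -0.39 ± 0.11 (log2, SE; edgeR adjusted p = 0.145) and SRRT, which links the cap-binding complex to 3′ processing, -0.30 ± 0.11 (adjusted p = 0.209), each with 25 µM TCEP. DESeq2 called 1 gene of the list between the compounds at 25 µM, CASP8AP2 (FLASH, which binds U7 LSM11), at -0.64 with an adjusted p of 0.0447, where edgeR gave -0.65 with 0.110. DESeq2 called 3.46% of the genes to which it gave an adjusted p in that comparison.

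In the list for histone gene transcription, 12 of 12 were tested and 0 of 48 tests reached an unadjusted p under 0.05 against DMSO. NPAT was at 15.3 ± 1.01 CPM in DMSO and 13.5 to 14.96 CPM in the treated groups. The smallest p values of the list belonged to TBP, the TATA-binding protein (0.17 ± 0.11 with 2.5 µM TCIPP, edgeR adjusted p = 0.535), and CDC25A, the phosphatase that opens S phase (0.15 ± 0.11 with 25 µM TCIPP, adjusted p = 0.918). Of the 22 chaperone genes, 5 tests were higher and 6 lower at an unadjusted p under 0.05 over the 4 comparisons (12.5% of 88), a share near the background. CABIN1, a subunit of the HIRA complex, gave -0.67 ± 0.18 (adjusted p = 0.136) and NAP1L1, an H2A-H2B chaperone, 0.29 ± 0.09 (adjusted p = 0.168), both in edgeR with 25 µM TCEP.

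Of the 16 replication-independent histones, 11 were tested, with 4 tests higher and 1 lower at an unadjusted p under 0.05 (11.4% of 44), also near the background. H1F0, the linker histone of resting cells, was at 555 ± 36.2 CPM in DMSO and 644 ± 23.3 CPM with 25 µM TCIPP, a log2 fold change of 0.21 ± 0.07 (edgeR adjusted p = 0.575). H2AFY2 (macroH2A2) gave 0.36 ± 0.12 with 25 µM TCEP (adjusted p = 0.194). H3F3B was at 332 ± 10.6 CPM in DMSO and 323 to 360 CPM in the treated groups, and H2AFZ at 132 ± 17.1 and 113 to 133 CPM.

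The 33 S-phase genes gave 1 test higher and 2 lower at an unadjusted p under 0.05 (2.27% of 132). Their list medians ran from -0.05 (25 µM TCIPP) to 0.12 (25 µM TCEP) on the log2 scale. CDT1, the replication licensing factor, gave 0.29 ± 0.09 with 2.5 µM TCIPP (edgeR adjusted p = 0.136), and TK1, thymidine kinase, -0.31 ± 0.10 with 250 µM TCEP (adjusted p = 0.803). In bulk RNA, fewer cells in S phase and less histone mRNA per cell cannot be told apart.

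The cell line and the libraries were checked once. HepG2 markers were high (ALB at a mean of 18472 CPM, APOB 12118, AFP 1614), and 0 of their 11 list genes were called by edgeR, with 4 tests higher and 6 lower at an unadjusted p under 0.05 against DMSO (22.7% of 44). DESeq2 called AHSG (fetuin-A) for 25 µM TCEP (background 2.7% of the genes given an adjusted p), AHSG and AFP for 2.5 µM TCIPP (2.09%), AHSG for the TCIPP step (1.51%), and AHSG and FGB between the compounds (3.46%). Of 11 leukocyte, endothelial and fibroblast markers, 4 passed the filter and 0 were called by edgeR, with 2 tests higher and 1 lower at an unadjusted p under 0.05 (18.75% of 16). DCN, COL1A2 and MS4A1 had no read, and PTPRC, CD3E and COL3A1 had at most 1 read in a library. LYZ was at a mean of 4555 CPM, CD68 at 32.7, COL1A1 at 1.52, and VWF and CDH5 at 0.871 and 0.872 CPM. The list of RNAs without a poly-A tail could not be used: 24 of its 26 genes were not tested, and RN7SK is listed at 0 because the tables give small RNAs no exon length, which leaves MALAT1 and NEAT1 at a mean of 18.1 and 49.1 CPM. Mitochondrial genes took 5.68% to 7.68% of exon reads.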

How the data were processed

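RNA of 15 HepG2 libraries was measured. The libraries were poly-A selected with a stranded kit and read as pairs of 50 bp, per the labels' protocols. Per the design text, the authors used CLC Genomics Workbench to map and count, and hg19 (GRCh37) is named in the submitters' processing notes; version and use of strand are not given in the sources used here. Per the file headers, the deposited tables hold whole-number counts of gene, exon and intron reads, and RPKM. Within each library the deposited RPKM was proportional to exon reads over exon length in 100% of genes with reads (relative tolerance 0.0001). The library total behind the RPKM was not checked. The design text names quantile normalization; the deposited counts differ in their totals and were used as they stand. Starts were moved to a 1-based scale, and 27 symbols that had turned into dates were restored.

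Total exon reads were tested with edgeR 4.0.16 (R 4.3.3), TMM scaling and filterByExpr, which left 12567 genes; 1 model held all 15 libraries, with Benjamini-Hochberg adjustment per comparison. The SE is the absolute log2 fold change over the root of the quasi-likelihood F. DESeq2 1.42.0 and limma 3.58.1 were alternatives, as were other scalings, filters, read classes, a replicate block and leaving out each library. The script was tested on simulated data. Replicate numbers come from the titles. The deviations of same-numbered libraries correlated at 0.177 to 0.297 within the 3 comparisons between treated groups, so numbers were taken to pair there. Against DMSO they correlated at 0.0164 to 0.158, lower but all positive, and numbers were not taken to pair. The block nevertheless raised the number of genes called against DMSO, so this choice limits the values against DMSO. The printed SE, intervals, p values and overlap counts take no account of pairing in any comparison. With the block, the median log2 fold change was -0.04 for the TCEP step, -0.24 for the TCIPP step and -0.20 between compounds at 25 µM. Against DMSO the block median was 0.04 for TCEP 25 µM, 0.03 for TCEP 250 µM, 0.07 for TCIPP 2.5 µM and -0.08 for TCIPP 25 µM.

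Members and gene lists were chosen with earlier results of these data known. Named were the 12 genes with the highest mean CPM, called genes, the 2 smallest p values per comparison, the highest gene of each class, the extremes of the unique share, the 2 smallest p values against DMSO of each other list, and SLBP, NPAT, H2AFZ, H3F3B, H1F0 and RN7SK. HIST2H4B as a gene without overlap, CASP8AP2, the marker genes and the genes listed for their read number or gene model were named after their values were seen. Stem-loops were searched on GRCh37 with GENCODE 44 lifted to it, promoters in RefSeq GRCh38.p14. Of the 15 tested genes, 3 overlap another listed gene (HIST1H2BK, HIST2H4A, HIST2H4B).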

Additional observations from a re-analysis of the deposited data

Results flagged for a closer look

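HIST1H2BN differed in opposite directions between the concentrations of each compound. All 3 libraries at 250 µM TCEP (3.77 to 4.68 CPM) lay above all 3 at 25 µM (2.92 to 3.13), and all 3 at 25 µM TCIPP (2.47 to 3.04) lay below all 3 at 2.5 µM (3.09 to 4.18). The TCEP step less the TCIPP step was 0.83 ± 0.28 on the log2 scale (SE), with an adjusted p of 1.00 in edgeR, so the difference did not pass the correction. Among all 12567 genes, 21 (0.167%) showed both steps without overlap in opposite directions, and 208 (1.66%) had an unadjusted p under 0.05 for the difference. The gene model of HIST1H2BN runs 16604 bases past its stem-loop on the genome, introns included, and 381 reads lay in its introns beside 580 in exons. Counted as gene reads, introns included, the TCIPP step was 0.01.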

How the results depend on the processing

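No histone gene was called in any of the 7 comparisons under any alternative run, the replicate block included, and the block changed no call of a histone gene. Over all genes the block took the number called from 0, 0, 12 and 1 against DMSO to 1037, 34, 941 and 47. Few reads limit what can be seen: 53 of 76 genes never reached 10 reads in a library, and DESeq2 gave an adjusted p to at most 7 of the 15.

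The median log2 fold change of the tested genes moved by more than its spread between libraries (0.13) in a few settings. Leaving out 1 library, it ran from -0.14 to 0.086 for 250 µM TCEP against DMSO (lowest without DMSO replicate 3), from -0.27 (without TCEP 250 µM replicate 3) to 0.058 (without TCEP 25 µM replicate 2) for the TCEP step, and from -0.25 to -0.079 (highest without TCIPP 2.5 µM replicate 2) for the TCIPP step. With no filter on low counts the TCIPP step was -0.025 over 60 genes. The summed level moved by more than 1 SD for 250 µM TCEP, to 61.3 CPM with unique exon reads and 68.7 with gene reads, and for 25 µM TCIPP, to 59.1 and 66.5 CPM. HIST1H2BN changed sign in the TCIPP step with gene reads (0.010). The share of genes with 10 reads became 29.4% for long and 4.44% for short models when every library had to reach it, and 11.1% for short models at 20 reads; these settings were chosen after seeing the data. The cause of these shifts was not tested. This spread replaced a looser definition after that one's value was seen.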
